A study of Mus musculus with 6 samples.

Results

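Interferon-induced GTPases were followed in CD4+CD8+ double-positive thymocytes, the immature T cells that are screened for a useful T cell receptor in the thymic cortex. The group was defined by name as 10 genes of the guanylate-binding protein (GBP) and immunity-related GTPase (IRG) families, Gbp2, Gbp3, Gbp4, Gbp6, Gbp7, Gbp9, Igtp, Irgm1, Irgm2 and Ifi47. Symbols in the authors' deposited table matched 9 of them among 16448 gene rows, and Gbp6 matched none and has no value of its own here. RNA was sequenced from sorted cells of C57BL/6 mice with the genotype Mettl14fl/fl; CD4-Cre+ (KO, 3 libraries) and of littermate controls labelled WT (3 libraries). The labels give no age and no treatment, and they do not say whether the controls carry floxed alleles or Cre. Mettl14 encodes a core subunit of the enzyme that deposits N6-methyladenosine on RNA (m6A). In the CD4-Cre transgene, regulatory sequence of Cd4 drives Cre in developing T cells from about the double-positive stage. The series title concerns invariant NKT cells, p53-dependent apoptosis and receptor signalling; the comparison used here is KO against WT in the double-positive precursors.

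GBPs and IRGs are GTPases that interferons switch on in most cell types and that coat the vacuoles of intracellular pathogens. In the IRG family, Irgm1, Irgm2 and Igtp are regulators that sit on the cell's own membranes and hold the effector IRGs, such as Iigp1, Tgtp1 and Tgtp2, in an inactive state. Interferon-gamma induces genes through a promoter element named the gamma-activated site (GAS), and type I interferon through the interferon-stimulated response element (ISRE), which is bound by a complex that contains Irf9. Irf1, itself induced by interferon-gamma, also binds ISRE-like sequence.

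Promoter sequence was examined because the members share these inducers. RefSeq promoter windows (build GRCm38.p6), covering 250 bases before and 50 after the annotated start, matched 7 members by symbol, with 8 windows because Gbp3 has a pair of starts; Gbp4, Gbp6 and Gbp9 were not matched. The ISRE core was searched on both strands as GAAA, any 2 bases and GAAA again, and the GAS core as TTCNNNGAA, which reads the same on both. At least 1 ISRE core was found for 6 of the 7 members, against 3.44% of all 32851 promoter windows, and a GAS core for 3 of the 7, against 8.30%. The stretches that hold the matches are shown 5′ to 3′ on the strand of the gene, with the matched bases in capitals, to let the arrangement of the elements be compared.
Gbp2, chr3:142620589-142620628, plus strand: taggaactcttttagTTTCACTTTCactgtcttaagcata
Gbp3, chr3:142559984-142560029, plus strand: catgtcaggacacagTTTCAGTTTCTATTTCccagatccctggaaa
Gbp7, chr3:142530215-142530307, plus strand: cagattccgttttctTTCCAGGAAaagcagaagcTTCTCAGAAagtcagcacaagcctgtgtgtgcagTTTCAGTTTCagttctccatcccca
Irgm1, chr11:48871421-48871465, minus strand: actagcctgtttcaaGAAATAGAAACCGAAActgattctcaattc
Igtp, chr11:58199496-58199546, plus strand: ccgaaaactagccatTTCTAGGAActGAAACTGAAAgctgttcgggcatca
Irgm2, chr11:58214887-58214937, plus strand: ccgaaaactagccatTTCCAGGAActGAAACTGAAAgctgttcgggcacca

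Igtp and Irgm2, neighbours on chromosome 11, carried a GAS core followed 2 bases later by an ISRE core, and their stretches were identical at 49 of 51 bases. Gbp7 carried 2 GAS cores upstream of 1 ISRE core. In Gbp3 and in Irgm1 the 2 ISRE matches overlap each other by 4 bases; no GAS match overlaps an ISRE match. Neither motif was found in the window of Ifi47, which covers only its most upstream annotated start. A match is a description of letters in the window and no occupancy of these sites was measured.

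**Figure D1:**
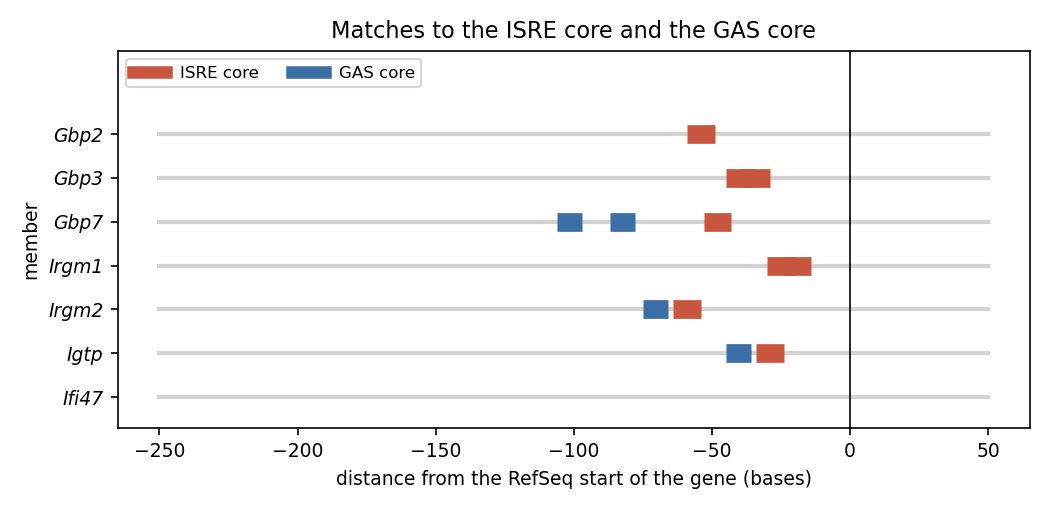
Positions of ISRE core (red) and GAS core (blue) matches in the promoter windows of 7 members; the x axis is the distance in bases from the RefSeq start of the gene and grey lines show the window. All matches lie before the start, and Ifi47 has none.

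The libraries held 29500254 to 33377056 counts in genes. Levels are given as CPM, counts scaled to a common library size by TMM, which corrects each total for composition, and a positive log2 fold change means a higher level in KO. Nothing in the labels states that the libraries stem from different mice, so the p-values refer to the spread among these libraries, part of which may be technical. On the first principal component of all tested genes (37.9% of the variance), the WT libraries lay at -38.9, -16.5 and -2.36 and the KO libraries at 32.2, 8.52 and 17.1. The groups were thus apart on it, with replicate 1 of each group at the ends. Mettl14 was at 52.1, 58.8 and 55.8 CPM in WT and 42.2, 40.3 and 36.4 CPM in KO, with all KO libraries below all WT libraries. Its adjusted p was 0.289 in edgeR and 0.002 in DESeq2, which called it. Markers of the sorted stage were abundant in all libraries, with Cd4 at 1864 to 2230 CPM and Rag1 at 4589 to 5308 CPM. Of 11 epithelial, stromal and endothelial markers, 2 (Foxn1 and Krt5) had 0 counts in all 6, which allows up to 0.0878 to 0.102 CPM per library. The others had counts, among them Epcam at 2.39 to 3.54 CPM in WT and 3.68 to 5.18 CPM in KO. Pdgfrb was at 3.51 to 4.92 CPM in WT and 6.23 to 11.3 CPM in KO.

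Interferon-induced GTPases were expressed in WT double-positive thymocytes without any added stimulus being recorded. Per kilobase of deposited gene length, Gbp4 had the highest level of the members in WT at 73.6 ± 6.10 CPM per kilobase (SD, n = 3). Gbp3 had the lowest at 1.09 ± 0.213, a 67.7-fold span. Between them came Igtp (26.7 ± 1.87), Ifi47 (18.1 ± 1.96), Gbp9 (12.4 ± 1.62), Gbp2 (11.7 ± 0.612), Gbp7 (8.05 ± 0.662), Irgm2 (5.65 ± 0.641) and Irgm1 (4.64 ± 0.704), all in CPM per kilobase. The WT libraries of neighbours in this order did not overlap, except for Gbp9 with Gbp2 and Irgm2 with Irgm1. The order was the same in KO, where Igtp with Ifi47 and Gbp7 with Irgm2 overlapped as well. Order and span depend on the deposited lengths, some of which exceed the gene's interval, as for Irf1 (11253 bases, 53770014 to 53778374). For Igtp the deposited length is 5621 bases, while its GENCODE M21 transcripts hold 2064 distinct words of 50 bases. For Gbp4 these values are 4538 and 7662. The place of a member may therefore differ with another length, which was not tested.

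**Figure D2:**
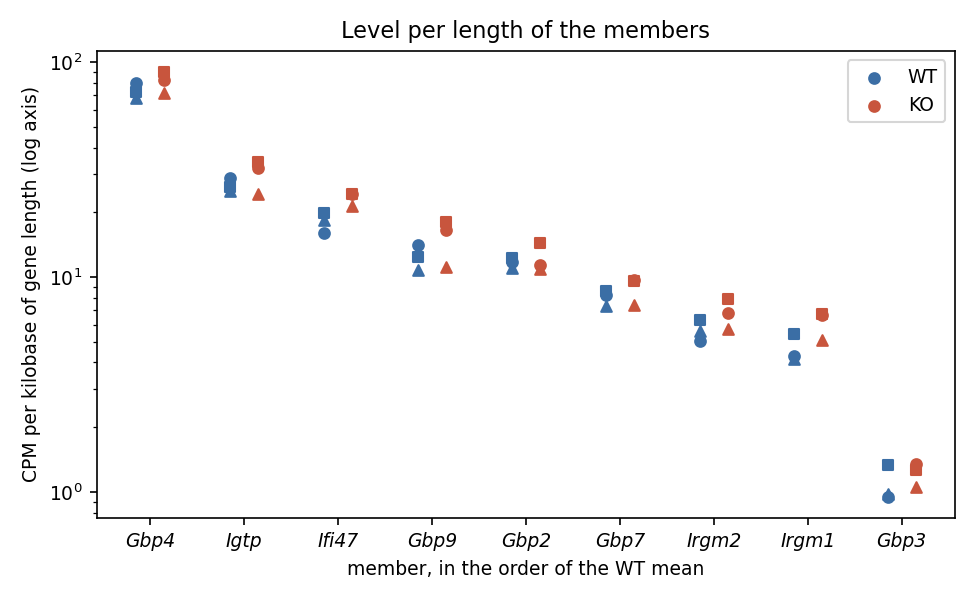
Level of each member in CPM per kilobase of deposited gene length (log axis), in the order of the WT mean; blue is WT, red is KO, and circles, squares and triangles are replicates 1, 2 and 3. Gbp4 lies above every other member and Gbp3 below every other member in both groups.

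Every matched member had a higher mean in KO than in WT, by 4.54% for Gbp2 to 33.1% for Irgm1. None passed the test over all genes: edgeR called 0 of the 9 members, where it called 0.0383% of all 13039 genes tested. DESeq2 also called 0 of 9 (0.675% of all genes), as did limma-voom (0.0537%) and the authors' deposited table (0.762%). All 9 passed the filter on low counts. The median log2 fold change of the members was 0.18, with a range of 0.064 to 0.41, against a median of -0.0040 over all genes tested, of which 48.9% were above 0. At an unadjusted p under 0.05, edgeR and DESeq2 had 2 members each, Ifi47 and Irgm1, both higher in KO; at that level 3.41% of all genes were higher in KO in edgeR and 3.44% in DESeq2. The members share the same 6 libraries, so their common direction is not 9 separate observations.

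Among the IRG members, Ifi47 (chromosome 11, 49076587 to 49096974), which encodes an IRG protein induced strongly by interferon-gamma, was at 66.3, 82.4 and 76.6 CPM in WT and 101, 102 and 89.2 CPM in KO. It was the one member whose 3 KO libraries all lay above all 3 WT libraries, where 6.59% of all genes tested did so. On the log2 scale the difference was 0.37 (SE 0.099), with an unadjusted edgeR p of 0.00555 and an adjusted p of 0.565. The adjusted p was lowest in DESeq2, at 0.127 (log2 fold change 0.38), and reached 0.994 among the alternatives. This gene lies within the interval of the olfactory receptor gene Olfr56 on the same strand, which had at most 33 counts in a library.

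Irgm1 (chromosome 11, 48861968 to 48871683), the regulator whose loss in mice disturbs lymphocyte survival during infection, was at 31.4, 39.8 and 30.4 CPM in WT and 48.6, 49.4 and 37.3 CPM in KO. KO replicate 3 lay below WT replicate 2, so the groups overlapped by this 1 pair of libraries. On the log2 scale Irgm1 was 0.41 higher in KO (SE 0.14), with an edgeR adjusted p of 0.707. Its unadjusted p of 0.0217 became 0.0524 without WT replicate 1, 0.0693 without WT replicate 3, 0.0727 without KO replicate 1 and 0.0726 without KO replicate 2; it was 0.00716 without WT replicate 2 and 0.00557 without KO replicate 3. Irgm2 (chromosome 11, 58199618 to 58222779), a regulator of the same class, was at 34.9, 43.7 and 38.8 CPM in WT and 47.2, 55.0 and 39.6 CPM in KO. Here too the overlap came from KO replicate 3 lying below WT replicate 2 (log2 fold change 0.27, SE 0.13, edgeR adjusted p = 0.762). Without KO replicate 2 this fold change was 0.16.

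Igtp (chromosome 11, 58199556 to 58207591), the third regulator of the class, was at 162, 147 and 141 CPM in WT and 181, 193 and 137 CPM in KO. KO replicates 1 and 2 were above all WT libraries and KO replicate 3 below all of them (log2 fold change 0.18, SE 0.13, edgeR adjusted p = 0.802). The intervals of Igtp and Irgm2 overlap by 7974 bases on the same strand, and 11.8% of the 50-base words of Igtp transcripts also occur in transcripts of Irgm2. Reads in shared exons cannot be assigned to either. The counts of both rows together were 197, 191 and 180 CPM in WT and 229, 248 and 177 CPM in KO, with KO replicate 3 again the lowest library.

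Among the GBP members, Gbp9 (chromosome 5, 105078394 to 105139539) was at 105, 114 and 70.5 CPM in KO against 89.1, 78.6 and 68.5 CPM in WT. KO replicate 3 lay below 2 of the 3 WT libraries (log2 fold change 0.29, SE 0.18, edgeR adjusted p = 0.781). Without KO replicate 3, the fold change was 0.48 with an unadjusted edgeR p of 0.0064 and an adjusted p of 0.484 (0.396 to 0.999 over all alternatives); without KO replicate 2 it was 0.16. Gbp4 (chromosome 5, 105115767 to 105139586) was at 364, 328 and 310 CPM in WT and 375, 408 and 327 CPM in KO, and KO replicate 3 lay within the WT range (log2 fold change 0.15, SE 0.099, edgeR adjusted p = 0.792).

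Another 3 GBP members lie in the cluster on chromosome 3. Gbp7 (142530338 to 142550083), which takes part in assembling the phagocyte oxidase, was at 91.4, 95.2 and 81.1 CPM in WT and 107, 106 and 82.1 CPM in KO (log2 fold change 0.14, SE 0.12, edgeR adjusted p = 0.834). Gbp3 (142560052 to 142573209) was at 9.54, 13.4 and 9.84 CPM in WT and 13.5, 12.7 and 10.6 CPM in KO (log2 fold change 0.17, SE 0.17, edgeR adjusted p = 0.86). Gbp2 (142620602 to 142638008), a lipid-anchored GBP, was at 39.4, 41.4 and 37.2 CPM in WT and 38.3, 48.4 and 36.7 CPM in KO. Only KO replicate 2 stood above the WT range for Gbp2, and the log2 fold change, 0.064 with all libraries (SE 0.12, edgeR adjusted p = 0.926), was -0.061 without it. Gbp3 and Gbp7 lie inside the longer interval of Gbp2b on the same strand, and the counts of these 3 rows together were 123, 133 and 113 CPM in WT and 142, 148 and 112 CPM in KO.

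**Figure D3:**
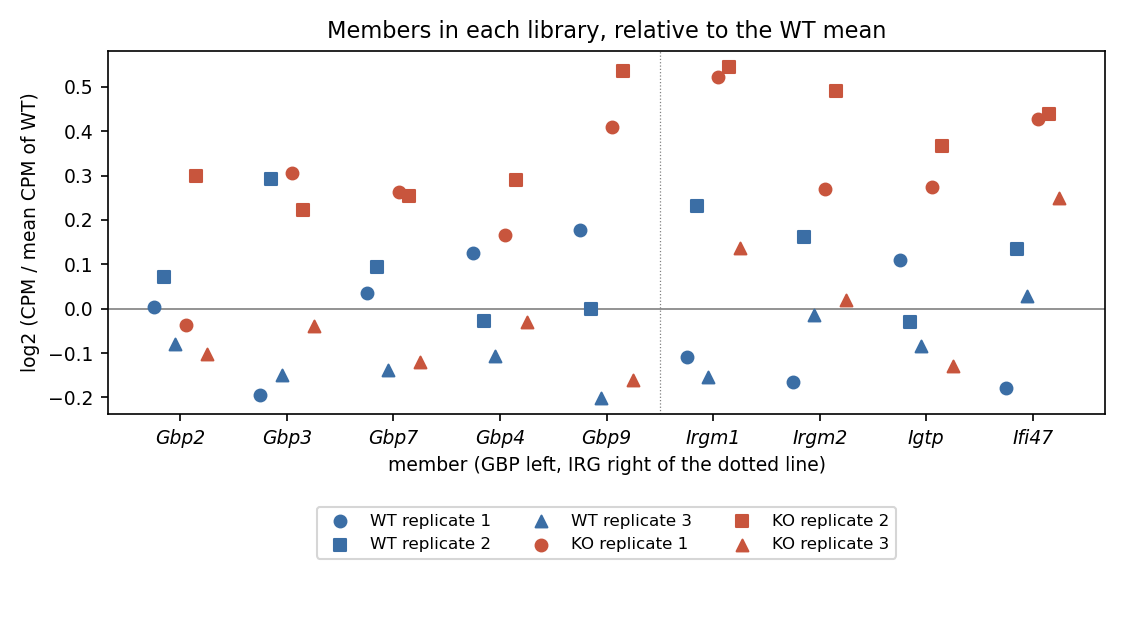
CPM of each member in each library as the log2 ratio to the WT mean of that member; blue is WT, red is KO, and circles, squares and triangles are replicates 1, 2 and 3. KO replicates 1 and 2 stand at the top for most members, while KO replicate 3 lies within or below the WT range for all but Ifi47.

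The spread among libraries was common to the family, within KO and in part within WT. WT replicate 3 was the lowest of the 6 libraries for 4 members and among the highest 3 for 0, and WT replicate 1 was lowest for 3. KO replicate 2 was the highest of the 6 libraries for 7 of 9 members and KO replicate 1 for the other 2, whereas KO replicate 3 was never highest and was lowest for 2. KO replicate 3 exceeded WT replicate 1 for 4 of the 9 members, WT replicate 2 for 1 and WT replicate 3 for 7. KO replicates 1 and 2 each exceeded each WT library for 8 or 9 members. Summed over the 9 members, the level was 888, 869 and 794 CPM in WT and 1016, 1090 and 831 CPM in KO. Leaving out KO replicate 3 moved the median log2 fold change from 0.18 to 0.32, with 7 of the 9 members at an unadjusted p under 0.05, where 6.64% of all genes were in that fit. Leaving out WT replicate 2 moved the median to 0.29; edgeR still called 0 members in both. Without KO replicate 3 the log2 fold changes of Igtp, Gbp4 and Gbp7 were 0.32, 0.23 and 0.26, and without KO replicate 2 they were 0.094, 0.079 and 0.092. Without KO replicate 2 the median was 0.15 and 8 of the 9 members were above 0.

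The authors' deposited table, whose fit is named as paired, gives Irgm1 a log2 fold change of 0.41 (adjusted p = 0.131), Ifi47 0.38 (adjusted p = 0.145) and Gbp9 0.28 (adjusted p = 0.486). These are the 3 members with an unadjusted p under 0.05 there, where 3.2% of all genes were higher in KO at that level. The other 6 members have adjusted p-values of 0.759 to 0.999 in the authors' deposited table.

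Other rows of the same families were taken from lists of related genes. Of 3 tested GBP rows outside the members, 0 passed in edgeR: Gbp8 was at 346, 272 and 262 CPM in WT and 297, 374 and 273 CPM in KO (log2 fold change 0.10, edgeR adjusted p = 0.898), Gbp2b had a log2 fold change of 0.012 and Gbp11 of 0.049. All 3 took the opposite sign when single libraries were left out, and that of Gbp2b also with upper-quartile scaling (-0.0094). Gbp4, Gbp8 and Gbp9 overlap one another on the same strand of chromosome 5, and their summed counts were 799, 678 and 640 CPM in WT and 776, 897 and 671 CPM in KO, groups that overlap. Over whole libraries, ambiguous reads made up 0.653% to 0.701% of tallied reads, and their share at these overlapping rows was not measured.

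The count table holds 1 fused row, named Gm43302 by its identifier (chromosome 5, 105215699 to 105293699), that spans the GENCODE M21 positions of both Gbp10 and Gbp6. Its values belong to neither gene alone. It was at 61.9, 64.6 and 52.5 CPM in WT and 92.9, 96.0 and 59.1 CPM in KO, where KO replicates 1 and 2 stood above all WT libraries and KO replicate 3 below 2 of them. On the log2 scale it was 0.47 higher in KO (SE 0.18, edgeR adjusted p = 0.715), against 0.41 for Irgm1, the highest member. This row was singled out after its values were seen.

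Of 6 tested IRG rows outside the members, all had log2 fold changes above 0 and 0 passed in edgeR, with 4 at an unadjusted edgeR p under 0.05. Over all genes tested, 48.9% were above 0 and 3.41% were higher in KO at that level. The median of the 6 was 0.90, and it draws on rows at low levels such as Tgtp1 and 9930111J21Rik1. Tgtp1, an effector that loads onto pathogen vacuoles, was at 0.995, 1.15 and 0.957 CPM in WT and 1.92, 3.35 and 1.30 CPM in KO (log2 fold change 1.08, SE 0.37, edgeR adjusted p = 0.695). All its KO libraries lay above all WT libraries, where 6.59% of all genes tested did so. Its near-copy Tgtp2 was at 3.83, 5.27 and 4.68 CPM in WT and 6.60, 9.72 and 5.21 CPM in KO, and reads of the pair can be exchanged or lost. The row 9930111J21Rik1 was 0.99 higher in KO on the log2 scale (SE 0.39, edgeR adjusted p = 0.715). This rests on few reads, 12, 11 and 6 counts in WT and 13, 23 and 19 in KO. Its interval also lies inside that of another IRG row, Gm12185, on the same strand. Iigp1, named after its values were seen, had 36, 139 and 52 counts in WT and 111, 341 and 85 in KO, so KO replicate 2 alone held most of the KO counts. Irgq, a divergent relative also chosen after its values were seen, was at 86.6 to 108 CPM in WT and 95.5 to 101 CPM in KO (log2 fold change 0.037).

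**Figure D4:**
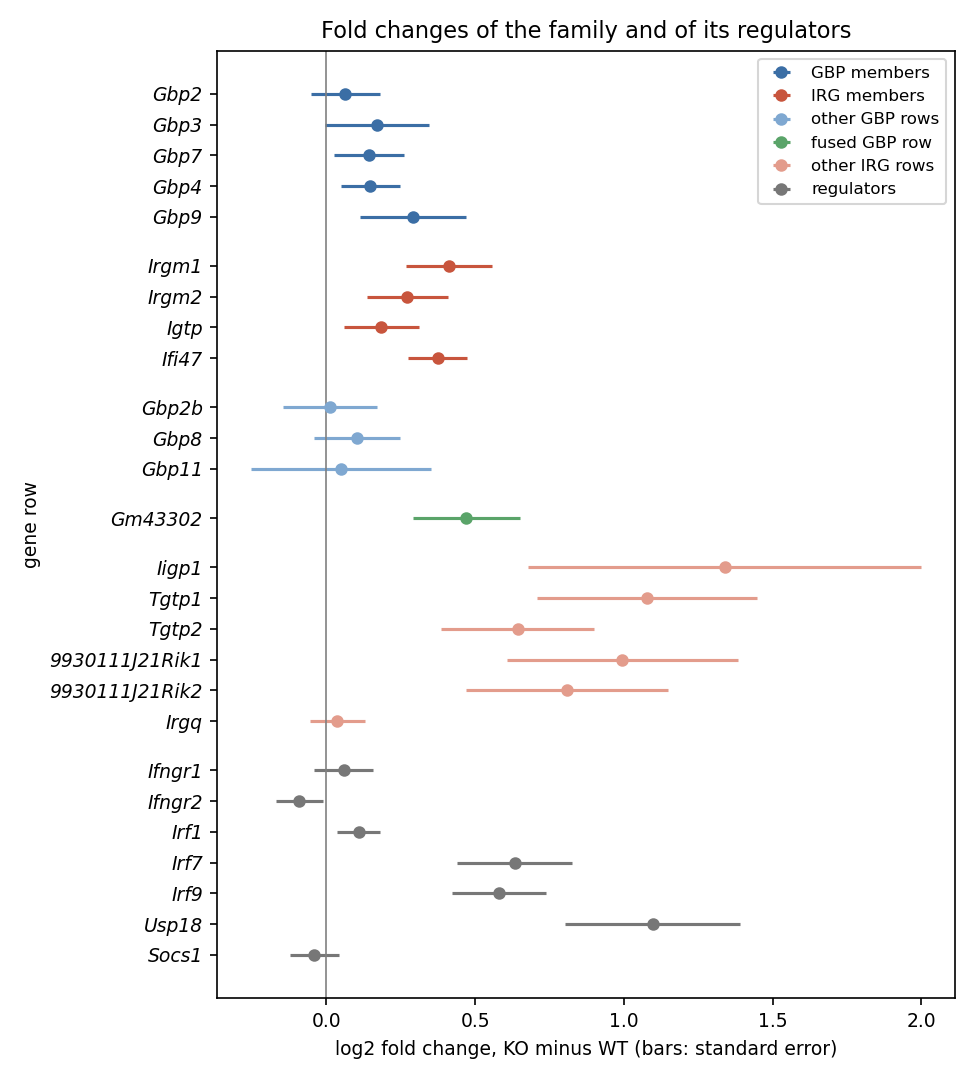
Log2 fold change, KO minus WT, with its standard error for the members, other rows of the GBP and IRG families, and regulators of interferon signalling. Points of the IRG members lie between 0.18 and 0.41 and those of the GBP members between 0.064 and 0.29, all above 0.

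Upstream of these genes, interferon transcripts were at or near the limit of detection. None of 7 ligand genes passed the count filter and 6 had 0 counts in all libraries; Ifng had 3 counts in WT replicate 2, 5 in KO replicate 2 and 1 in KO replicate 3, and 0 elsewhere. The receptor chains of interferon-gamma were present, with Ifngr1 at 552, 625 and 637 CPM in WT and 715, 589 and 583 CPM in KO (log2 fold change 0.058, edgeR adjusted p = 0.923). Ifngr2 was at 58.1, 55.0 and 50.6 CPM in WT and 49.5, 53.8 and 50.3 CPM in KO (log2 fold change -0.091, edgeR adjusted p = 0.840). Of 5 receptor genes tested, 3 were above 0, 2 below, and 0 were at an unadjusted p under 0.05.

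Of 11 kinases and transcription factors of the pathway, 10 had log2 fold changes above 0 and 0 passed in edgeR, with a median of 0.12. Irf9 was at 54.7, 72.4 and 65.6 CPM in WT and 100.2, 112 and 75.6 CPM in KO, without overlap (log2 fold change 0.58, SE 0.16, edgeR adjusted p = 0.592). Irf7, a factor that amplifies type I interferon, was at 20.5, 23.3 and 18.0 CPM in WT and 34.1, 38.8 and 23.0 CPM in KO (log2 fold change 0.63, edgeR adjusted p = 0.630). Irf1 was at 80.3, 90.6 and 82.9 CPM in WT and 94.6, 91.5 and 87.4 CPM in KO (log2 fold change 0.11, edgeR adjusted p = 0.801). In all 3 of these factors, as in all 9 members, KO replicate 3 was the lowest KO library.

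Inhibitors of the pathway differed among themselves. Usp18, which blocks the type I receptor, was at 11.6, 18.2 and 14.1 CPM in WT and 36.2, 39.8 and 18.1 CPM in KO (log2 fold change 1.10, SE 0.29, edgeR adjusted p = 0.578). DESeq2 called Usp18, with an adjusted p of 0.0187. Ptpn6, a phosphatase, had a log2 fold change of 0.22 and Cish of 0.93 from about 1 CPM. Of the 8 inhibitors tested, 6 were above 0 and 0 passed in edgeR, with a median of 0.086.

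Other targets gave a comparison outside the GTPases. Of 12 tested targets of interferon-gamma, 10 were above 0, with a median log2 fold change of 0.14 and 0 called in edgeR. DESeq2 called 1 of them, B2m, with an adjusted p of 0.0385. B2m, the light chain of MHC class I, was at 206, 238 and 210 CPM in WT and 287, 391 and 276 CPM in KO (log2 fold change 0.54, SE 0.14, edgeR adjusted p = 0.540), Tapbp had a log2 fold change of 0.22 and Tap1 of 0.21. All 17 tested type I targets were above 0, with a median of 0.82, 10 at an unadjusted p under 0.05 and 0 called in edgeR. Of all genes tested in edgeR, 48.9% were above 0 and 3.41% were higher in KO at that unadjusted p. DESeq2 called 5 of the 17 (Xaf1, Rtp4, Oas2, Oas3 and Isg15), all higher in KO, where it called 0.675% of all genes; Oas2 and Isg15 are named for that call alone. The median of the 17 was larger than that of the GTPases (0.18), a difference that was not tested. Other large GTPases outside the family, such as the dynamins and mitofusins, had a median of -0.0058 over 9 tested genes, with 3 above 0, and Dnm1l was at -0.081 (edgeR adjusted p = 0.809).

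Proteins that act with GBPs and IRGs were also counted. Of 13 genes listed as conjugation and loading partners of these GTPases, 9 were above 0, with a median of 0.071 and 0 called in edgeR. Gabarap had a log2 fold change of 0.17, Traf6 of 0.11 and Atg7 of -0.23. Of 3 tested inflammasome genes, Aim2, the sensor of cytosolic DNA, was at 42.4, 36.9 and 30.7 CPM in WT and 17.9, 23.1 and 45.2 CPM in KO (log2 fold change -0.35, edgeR adjusted p = 0.841). Aim2 was lowest in the 2 KO libraries where the GTPases were highest. Pycard and Gsdmd had log2 fold changes of 0.080 and 0.019.

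Interferon-induced GTPases are also expressed by antigen-presenting cells, B cells and stroma, and markers of these cells were read in the same libraries. In bulk RNA, a change in the number of cells of a type and a change in RNA per cell cannot be told apart. Of 8 tested myeloid and dendritic markers, 7 were above 0, and the 12 matched markers summed to 87.9 to 93.9 CPM in WT and 91.5 to 124 CPM in KO. Cd74, the invariant chain of MHC class II, was at 2.69, 5.15 and 3.52 CPM in WT and 2.42, 18.7 and 10.5 CPM in KO. KO replicate 1, where the GTPases were high, had the lowest Cd74 of the 6 libraries, and KO replicate 3, where they were at the WT level, had the second highest. H2-Eb1, a chain of MHC class II, was at 0.439, 1.27 and 0.683 CPM in WT and 0.464, 4.81 and 2.29 CPM in KO; it was singled out after its values were seen, like the other markers named here apart from Cd74, Fcer1g, H2-Ab1, Cd79a, Pdgfrb and Epcam. Other markers of the list differed from Cd74 in KO replicate 1, where 6 of the 12, rows below the count filter included, lay above all WT libraries. H2-Ab1, another class II chain, was at 4.62, 5.51 and 5.29 CPM in WT and 6.63, 6.71 and 8.12 CPM in KO. All KO libraries lay above all WT libraries for 3 of the 8 tested markers, Cst3, Fcer1g and H2-Ab1, where 6.59% of all genes tested did so. Tyrobp, which did not pass the count filter, had the same order. Fcer1g and Tyrobp were at no more than 0.775 CPM, and Itgax and Adgre1 at no more than 0.186 CPM, in any library.

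Of 4 tested B cell markers, 3 were above 0, with Cd79a at 0.351, 0.454 and 0.307 CPM in WT and 0.597, 1.998 and 0.961 CPM in KO, and the 7 matched markers summed to 796 to 846 CPM in WT and 797 to 845 CPM in KO, nearly all of it Ighm. Thymic epithelial, stromal and endothelial markers summed to 196 to 224 CPM in WT and 204 to 218 CPM in KO, with 2 of 11 at 0 counts in all libraries, Foxn1 and Krt5; Pdgfrb had a log2 fold change of 1.01 (called by DESeq2, adjusted p = 0.0351) and Epcam of 0.56. Natural killer and innate markers summed to 27.3 to 41.9 CPM in WT and 39.8 to 48.8 CPM in KO. Mature single-positive thymocyte markers summed to 262 to 274 CPM in WT and 262 to 293 CPM in KO, and the markers of double-positive cells to 12569 to 14130 CPM and 13233 to 14071 CPM. The part of these cells in the values of the GTPases was not tested.

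**Figure D5:**
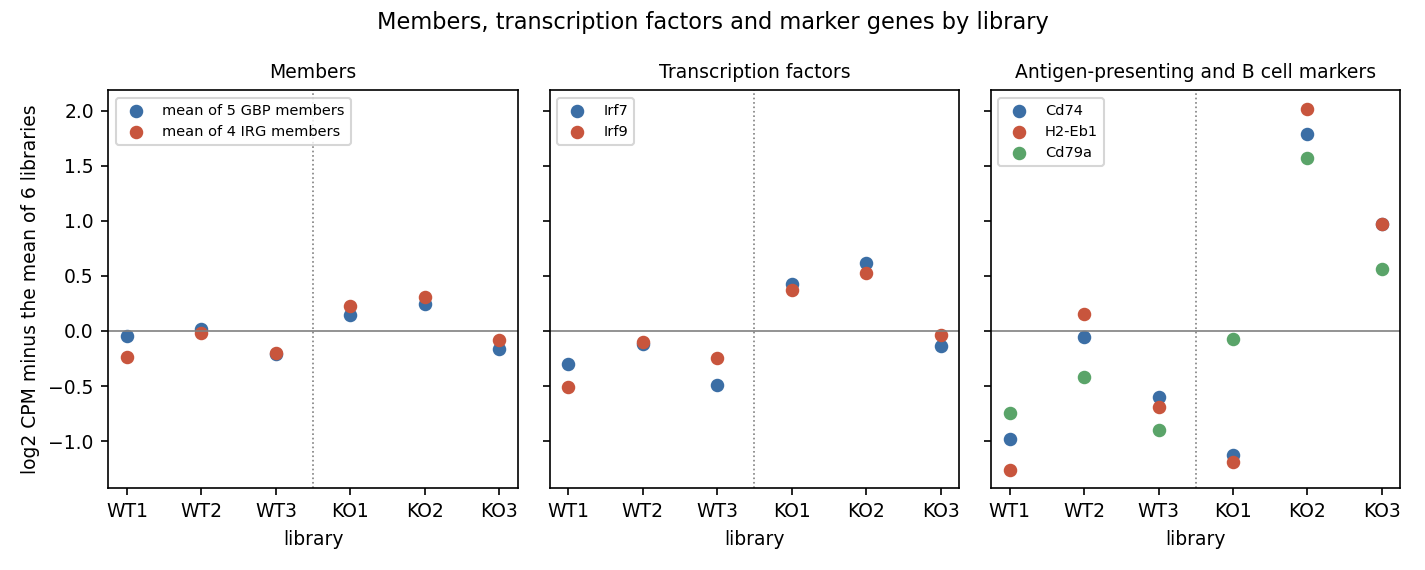
Log2 CPM minus the mean of the 6 libraries for the mean of the GBP and of the IRG members (left), for Irf7 and Irf9 (middle) and for Cd74, H2-Eb1 and Cd79a (right); the dotted line separates WT from KO libraries. GTPases and transcription factors are highest in KO replicates 1 and 2, whereas Cd74 and H2-Eb1 are high in KO replicates 2 and 3 and low in KO replicate 1. Cd79a is also highest in KO replicates 2 and 3, but in KO replicate 1 (-0.0703) it lies above all WT libraries (-0.902 to -0.422).

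Genes outside all lists with the profile most like that of the members were found among 8903 genes whose mean log2 CPM reached 3 or more. Likeness was the Pearson correlation over the 6 libraries with the mean of the standardized members, a description over libraries that differ in genotype and depth. The highest of 8903 correlations over only 6 libraries are high in part through the ranking itself. The 5 closest were Ly6k (r = 0.991), Rad17 (0.985), Dhx58 (0.984), Isg20 (0.980) and Shfl (0.978), with Spearman's rho of 0.943 for all but Isg20, which had 1. Rad17 differed little between the groups (log2 fold change 0.095, edgeR unadjusted p = 0.244). Dhx58, which encodes the RNA sensor LGP2, was at 10.1, 12.4 and 8.40 CPM in WT and 15.8, 17.3 and 10.6 CPM in KO (log2 fold change 0.50, edgeR unadjusted p = 0.0518). Ly6k, a lipid-anchored surface protein, was at 10.7, 15.96 and 9.36 CPM in WT and 20.9, 25.8 and 10.7 CPM in KO.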

How the data were processed

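RNA of sorted thymocytes was sequenced in 3 KO and 3 WT libraries. Trimmomatic 0.33, STAR 2.5.2, HTSeq and DESeq2 on build mm10 are named per the submitters' processing notes. No source used here gives the strand setting, counting mode or annotation. The authors deposited raw counts per gene with gene lengths, and a normalized signal, the counts over a size factor that is constant within a library. Log2 fold changes and p-values of a comparison the file name calls paired DESeq were also deposited by the authors. Rows without a gene (no feature 12.3% to 15.2%, several alignments 22.6% to 23.9% of tallied reads) were left out.

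Counts were tested with edgeR 4.0.16 (TMM, filterByExpr, quasi-likelihood test on group, two-sided, Benjamini-Hochberg over 13039 genes, threshold 0.05) in R 4.3.3; standard errors were derived from the F statistic and the log2 fold change. DESeq2 1.42.0 and limma-voom (limma 3.58.1) were alternatives. Tested on simulated data of the same KO and WT design (13039 genes), the recovered share was 32.8% at 1.5-fold, 61.2% at 2-fold and 92.4% at 4-fold; 16 of 140 calls were false. Members and gene lists were chosen with earlier results of these data known. Text names all members and, from each list, every gene where at most 3 were tested and otherwise up to 3 with the lowest p, with Irf1, Ifngr1, Ifngr2 and Mettl14; not all are described, and 1 gene of this rule is not reported here. Transcript words come from GENCODE M21 and promoters from RefSeq. No replicate pair was alike within counting error: chi-square over its degrees of freedom was at least 17.3.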

Additional observations from a re-analysis of the deposited data

How the results depend on the processing

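Alternatives were DESeq2 size factors, upper-quartile scaling, no filter on low counts, DESeq2, limma-voom, a replicate block and leaving out each library, and, chosen after seeing the data, a 2-level block that sets replicate 3 apart and replicates 1 and 2 alone. Under all 14, 0 members were called, and the lowest adjusted p of a member was 0.127 in DESeq2 and 0.215 without the filter. The median fold change of the members stayed positive, at 0.14 to 0.32 when single libraries were left out. Scaling moved the median of all genes by at most 0.023. Genes called over the whole table numbered 30 without the filter, 88 in DESeq2 and 4 to 23 when single libraries were left out, against 5. With the replicate block 5 genes and 0 members were called, and 3 members had an unadjusted p under 0.05, as had 6.09% of all genes. Deviations of same-numbered libraries from their group means had correlations of -0.149, 0.0796 and 0.192 for replicates 1, 2 and 3. Pairs of a WT and a KO library with different numbers ran from -0.282 to 0.181, so replicate 3 had the highest value. The numbers do not show a clear pairing, but with means of 3 libraries this check is weak and cannot decide it.

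Signs changed for genes near 0, and the cause was not tested. Gbp2b was at -0.0094 with upper-quartile scaling, -0.016 with limma-voom and -0.0075 with the replicate block, and Gsdmd at -0.00495 with upper-quartile scaling. Gbp11 was at -0.126 in replicates 1 and 2 alone. When single libraries were left out, ranges were -0.0615 to 0.143 for Gbp2, -0.172 to 0.139 for Gbp2b, -0.0329 to 0.238 for Gbp8, -0.168 to 0.277 for Gbp11, -0.041 to 0.113 for Ifngr1, -0.0382 to 0.128 for Gsdmd, -0.056 to 0.0161 for Opa1. With at most 5 counts of Ifng in a library, differences in interferon transcripts were not detectable at this depth.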
